A study of Mus musculus with 12 samples.

Results

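The genes described here are 10 targets of the integrated stress response (Atf4, Atf5, Ddit3, Trib3, Chac1, Sesn2, Ddit4, Asns, Psat1 and Phgdh), followed at the level of H3K27ac, the acetylated histone H3 lysine found at active promoters and enhancers. They were found by their symbol in the gene column of a table of H3K27ac intervals from 4T1 cells, an established mouse mammary carcinoma line. By this rule 9 of the 10 genes had intervals, 59 of the 126464 in the table, and these 9 stood among 22264 gene names. Trib3 had no interval of its own name. Cells received vehicle, etomoxir at 50 µM, or etomoxir with SB204990, also at 50 µM, each without or with 5 mM acetate, for 48 h, which gives 6 treatments. Etomoxir keeps long-chain fatty acids out of mitochondria, SB204990 blocks ATP citrate lyase, and acetate is a separate source of acetyl-CoA, so the treatments ask whether acetyl-CoA supply sets the mark. There were 2 ChIP-seq libraries per treatment, called set 1 and set 2 after a suffix shared by the library names. What the suffix means is not given, nor whether the libraries came from separate cultures, so the p-values measure only the spread between these libraries.

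In the integrated stress response, kinases that sense amino acid shortage, unfolded protein, double-stranded RNA or heme shortage phosphorylate the translation factor eIF2alpha. Most translation then slows, while the messenger RNA of ATF4 is translated more, and ATF4 with partner bZIP proteins induces genes for amino acid supply, for redox balance and, when stress lasts, for cell death. H3K27ac reports on the chromatin of these genes and not on their RNA or on the translation of Atf4, where much of the control of this pathway lies.

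Every value below is the number of reads in an interval, or in all intervals of a gene, multiplied by the spike-in factor of the library, and is called scaled reads. Reads in intervals ranged from 7179165 to 16676442 per library. The library of etomoxir + SB204990 in set 2 was the shallowest and stood apart, with 2.77% of its reads in the weakest 25% of intervals against 0.990% to 1.41% in the others. Of the markers of mammary epithelium, 5 of 6 had intervals (Krt18 had none by name), with a summed level of 6748 to 16223 scaled reads per library. Of the markers of leukocytes, endothelium, fat, muscle and liver, 6 had intervals, summing to 662 to 1865. In vehicle cells most of this sum was Pecam1, an endothelial marker, whose mean of 623 scaled reads was above that of the epithelial marker Krt14 (405), and whose 35.2 scaled reads per kb were above those of Epcam (27.7). Its part in the results was not tested. Myh4, Actc1 and Alb, which mark muscle and liver, had none.

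Most of the genes carried a broad acetylated domain over their start site, against a median length of 715 bp over all intervals. The lengths were not compared with start-site intervals of other genes. The interval over the start of Ddit4, an inhibitor of mTORC1 signaling, was 79284 bp long (chr10:59878660-59957943, mm10) and also held the start of Dnajb12. The interval of Ddit3, which encodes the stress transcription factor CHOP, spanned 20055 bp (chr10:127280890-127300944) and shared its domain with the start of Mbd6. That of Atf5, a bZIP factor related to ATF4, spanned 17714 bp (chr7:44811431-44829144) with the starts of Nup62 and Il4i1. That of Atf4 itself spanned 17185 bp (chr15:80248037-80265221) with the start of Rps19bp1. In these 4 domains the signal of the stress gene and of its neighbors cannot be told apart.

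Chac1, a glutathione-degrading enzyme, had 14 intervals by name, and the 14689-bp interval over its start (chr2:119341628-119356316) held 68.4% of its signal. Only 1 interval, that over the start, overlapped the gene itself. Several others were annotated to parts of another gene, up to 42256 bp from the start of Chac1. Sesn2, a leucine-binding inhibitor of mTORC1, had 2, of which the 8787-bp interval over the start (chr4:132508312-132517098) held 96.4%. By position, 8 intervals of any name overlapped the Sesn2 gene. Sums by name thus differ from the signal over the gene itself. Asns, asparagine synthetase, had 3, and a compact 3233-bp interval at its start (chr6:7690595-7693827) held 92.2%. Phgdh, the first enzyme of serine synthesis, was different in that its strongest interval did not lie over its start. An upstream intergenic interval of 10748 bp (chr3:98351426-98362173) held 40.8% of the signal of Phgdh, and the 9133-bp interval over the start (chr3:98332900-98342032) held 29.2%. Psat1, the next enzyme of that pathway, had 13 intervals, and the strongest, of 6686 bp (chr19:15921170-15927855), held 58.9% and contained both start sites given by RefSeq. The table measured distance from another start of Psat1, where a 1192-bp interval (chr19:15946846-15948037) held 3.27%.

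The start of Trib3, a pseudokinase that binds ATF4 and CHOP, lay inside a 42822-bp interval that the table names for its neighbor Rbck1 (chr2:152309772-152352593). This interval was looked up after the values were seen, is given apart, and is not counted with the 9 genes.

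**Figure D1:**
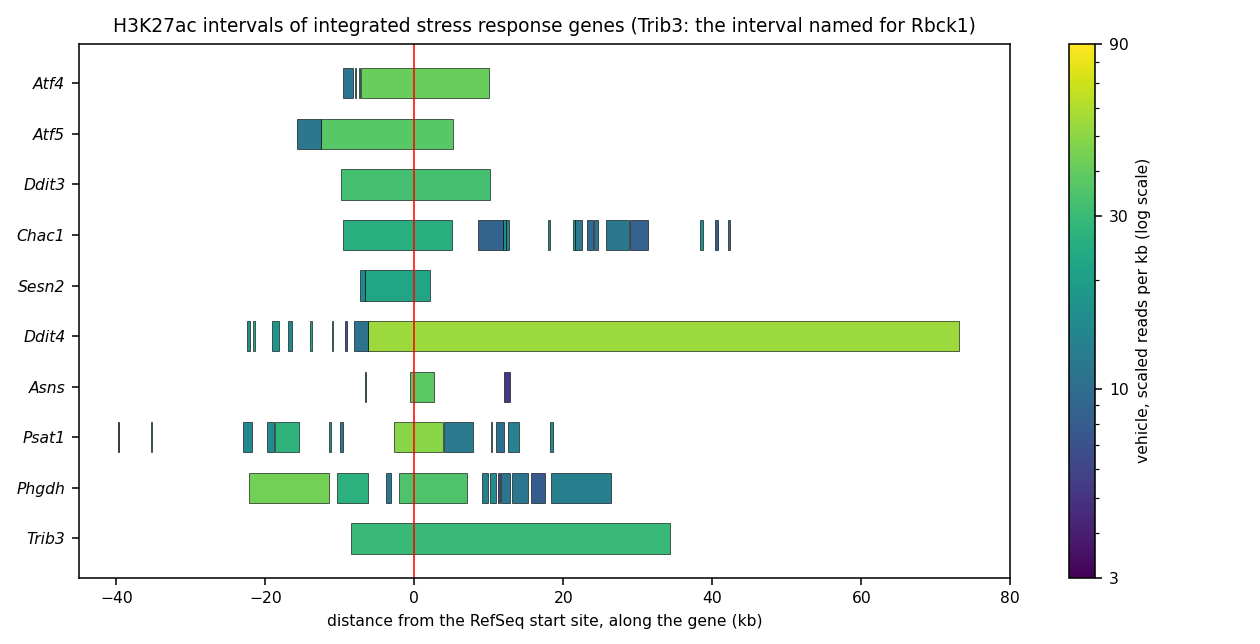
Position of the H3K27ac intervals of each gene relative to its RefSeq start site (red line, x axis in kb along the direction of the gene), colored by the mean vehicle signal in scaled reads per kb on a log scale. Ddit4 had the longest interval (79284 bp), and the strongest interval of Phgdh lay upstream of its start.

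Since ATF4 binds as a dimer with C/EBP-type partners to a composite element, the letters TGATGNAA and their reverse complement TTNCATCA were looked up from 500 bases before to 50 after each RefSeq start site (assembly GRCm38.p6). A match was found for 5 of the 10 genes (5 of their 12 windows), and for 8.06% of all 27025 genes (7.15% of all 32851 windows). The following stretches are shown because they place these letters within the acetylated start-site intervals, in capitals, on the strand of the gene and from 5′ to 3′. The cAMP response element TGACGTCA, a palindrome, was in 2.17% of all windows and in none of these genes. A match is a description of the letters only, and binding of ATF4 was not measured.
Asns, chr6:7693210-7693309, minus strand: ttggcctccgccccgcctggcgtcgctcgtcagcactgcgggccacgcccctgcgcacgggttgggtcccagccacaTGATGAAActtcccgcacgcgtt
Chac1, chr2:119351003-119351102, plus strand: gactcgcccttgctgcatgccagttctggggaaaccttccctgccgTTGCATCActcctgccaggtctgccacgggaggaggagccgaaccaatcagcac
Ddit3, chr10:127290446-127290545, plus strand: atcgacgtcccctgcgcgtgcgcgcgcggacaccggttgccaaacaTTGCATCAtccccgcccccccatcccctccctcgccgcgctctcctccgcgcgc
Sesn2, chr4:132510707-132510806, minus strand: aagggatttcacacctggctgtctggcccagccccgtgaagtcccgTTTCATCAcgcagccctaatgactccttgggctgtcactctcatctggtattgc
Trib3, chr2:152344028-152344057, minus strand: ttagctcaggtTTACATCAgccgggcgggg

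Relative to the start site, the match began at base -23 in Asns, -193 in Chac1, -301 in Ddit3, -304 in Sesn2 and 15 in Trib3. The windows of Atf4, Atf5, Ddit4, Psat1 and Phgdh held no match.

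Per kb of interval, the vehicle signal was highest in Ddit4 (51.1 scaled reads per kb in set 1 and 52.1 in set 2) and lowest in Chac1 (15.6 and 21.3). Atf4 followed Ddit4 with 38.7 and 38.9. Next came Atf5 (33.4 and 33.2) and Ddit3 (32.1 and 32.7). The 2 libraries of Asns (34.6 and 26.0) spanned these and also overlapped with Phgdh (25.2 and 29.6) and Psat1 (25.7 and 28.8), which overlapped with each other. Sesn2 (19.8 and 23.9) overlapped with Chac1. Among all intervals by vehicle signal per kb, those over a RefSeq start lay between percentile 88.0 (Sesn2) and 99.1 (Ddit4). The interval at the distal start of Psat1 lay at 68.5. These ranks are not against the start-site intervals of other genes.

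Next, the 6 treatments were compared, beginning with the transcription factors. Atf4 had 731 and 734 scaled reads in vehicle cells (set 1 and set 2), 1030 and 924 with acetate, 796 and 872 with etomoxir, 1300 and 1301 with etomoxir + acetate, 636 and 517 with etomoxir + SB204990, and 863 and 1143 with etomoxir + SB204990 + acetate. It was highest with etomoxir + acetate in both sets and lowest with etomoxir + SB204990, while the second etomoxir library (872) lay above the lowest library with acetate (863). Atf5 had 701 and 697 in vehicle, 1029 and 1033 with acetate, 813 and 794 with etomoxir, 1340 and 1297 with etomoxir + acetate, 607 and 644 with etomoxir + SB204990, and 938 and 1210 with etomoxir + SB204990 + acetate. All 6 Atf5 libraries with acetate were above all 6 without. Ddit3 had 644 and 656 in vehicle, 908 and 948 with acetate, 764 and 663 with etomoxir, 1327 and 1255 with etomoxir + acetate, 536 and 665 with etomoxir + SB204990, and 918 and 1159 with etomoxir + SB204990 + acetate. It likewise did not overlap between libraries with and without acetate.

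The genes of redox balance and mTORC1 control were also highest with etomoxir + acetate. Chac1 had 439 and 600 in vehicle, 669 and 750 with acetate, 601 and 554 with etomoxir, 926 and 999 with etomoxir + acetate, 374 and 613 with etomoxir + SB204990, and 664 and 795 with etomoxir + SB204990 + acetate. Its libraries without acetate spread widely between the sets but stayed below all with acetate. Sesn2 had 185 and 223 in vehicle, 302 and 306 with acetate, 239 and 250 with etomoxir, 383 and 396 with etomoxir + acetate, 164 and 201 with etomoxir + SB204990, and 277 and 330 with etomoxir + SB204990 + acetate. Ddit4 had 4289 and 4371 in vehicle, 6441 and 5714 with acetate, 4530 and 4425 with etomoxir, 7640 and 7128 with etomoxir + acetate, 3240 and 3485 with etomoxir + SB204990, and 4980 and 6574 with etomoxir + SB204990 + acetate. Neither Sesn2 nor Ddit4 overlapped between libraries with and without acetate.

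Among the enzymes of amino acid synthesis, Asns stood out by its small range. Asns had 146 and 110 in vehicle, 158 and 141 with acetate, 165 and 160 with etomoxir, 228 and 174 with etomoxir + acetate, 130 and 137 with etomoxir + SB204990, and 151 and 199 with etomoxir + SB204990 + acetate. Its libraries with and without acetate overlapped, since both etomoxir libraries were above both acetate libraries. Psat1 had 518 and 580 in vehicle, 738 and 705 with acetate, 625 and 633 with etomoxir, 1086 and 921 with etomoxir + acetate, 439 and 540 with etomoxir + SB204990, and 688 and 852 with etomoxir + SB204990 + acetate. Phgdh had 996 and 1170 in vehicle, 1353 and 1507 with acetate, 1127 and 1114 with etomoxir, 1906 and 1845 with etomoxir + acetate, 773 and 1010 with etomoxir + SB204990, and 1281 and 1661 with etomoxir + SB204990 + acetate. Psat1 and Phgdh did not overlap between libraries with and without acetate. Every acetate library was above every library without acetate in 7 of the 9 genes and in 39.3% of all genes tested.

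**Figure D2:**
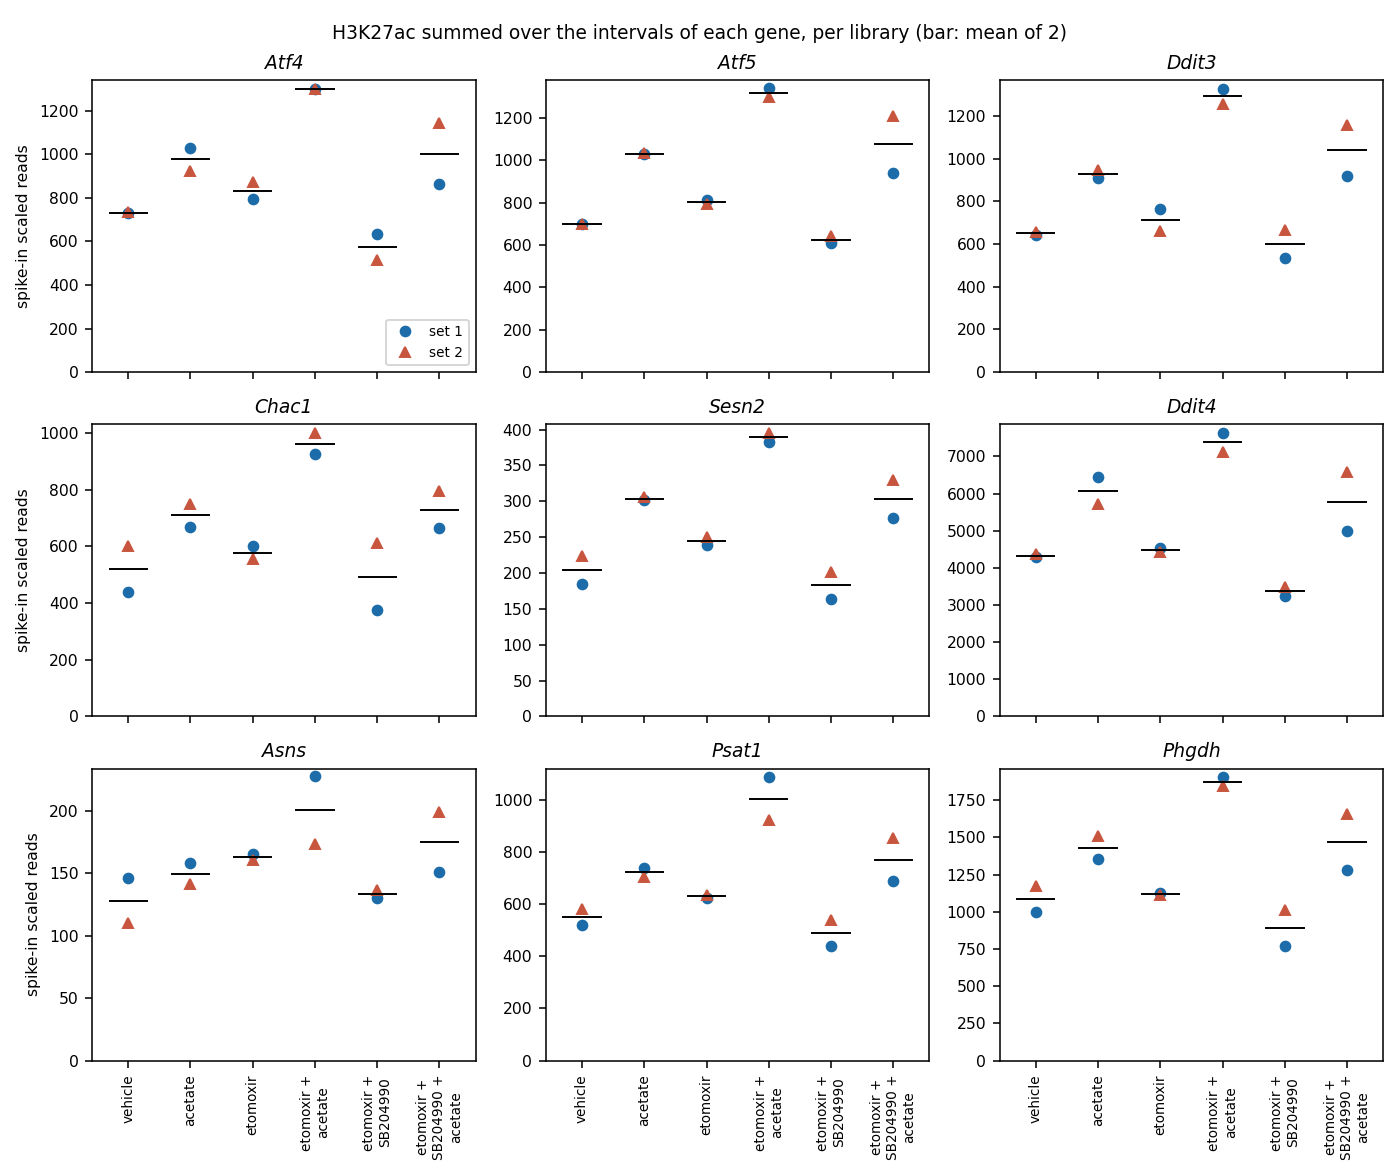
Scaled reads (y axis, from 0) summed over the intervals of each gene in the 12 libraries, by treatment, with set 1 as circles, set 2 as triangles and the mean of the 2 libraries as a bar. Etomoxir + acetate had the highest mean in every panel, and in Asns both etomoxir libraries were above both acetate libraries.

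To determine the effect of acetate, the 3 acetate contrasts (acetate vs. vehicle, etomoxir + acetate vs. etomoxir, and etomoxir + SB204990 + acetate vs. etomoxir + SB204990) were averaged. H3K27ac rose at 8 of the 9 genes, all but Asns, where 88.2% of all genes tested were called (limma, Benjamini-Hochberg adjusted p under 0.05 over 19458 genes). The log2 change was largest in Ddit3 at 0.72 ± 0.11 (SE), 1.65-fold, with an adjusted p of 1.54e-05 by limma, and it was 0.68 in Atf5, 0.66 in Sesn2 and in Ddit4, 0.62 in Atf4 and in Phgdh, 0.60 in Chac1 and 0.57 in Psat1. Asns changed by 0.30 ± 0.14 (1.23-fold) and did not pass (adjusted p = 0.0536, limma). It was called in 9 of 20 alternatives, among them edgeR (adjusted p = 0.0486) and limma without an intensity trend (adjusted p = 0.0469), over a range of 0.0133 to 0.964. Asns was higher with acetate in 6 of 6 same-set pairs, as were each of the other genes and the median of all genes. The median of the 9 genes was 0.62, beside 0.63 for all genes tested, and their share of calls was near the background. When the factor was applied to read shares (each value divided by the library's reads), 0 of the 9 were called (0% of all genes). Their median change was then 0.42, beside 0.43 for all genes. In bulk chromatin, fewer marked cells and less mark per cell cannot be told apart.

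No gene was called relative to that genome-wide shift. After median-of-ratios scaling, which sets the typical interval equal across libraries and removes the shift, 0 of the 9 genes were called for acetate and 0% of all genes. The scaled changes ran from -0.34 in Asns to 0.08 in Ddit3. At an unadjusted p under 0.05, 0 of the 9 genes and 1022 of all genes passed. Asns was above the all-gene median change in 1 of 6 pairs, as were Atf4, Psat1 and Phgdh, and Ddit3 and Sesn2 were above it in 4 of 6.

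**Figure D3:**
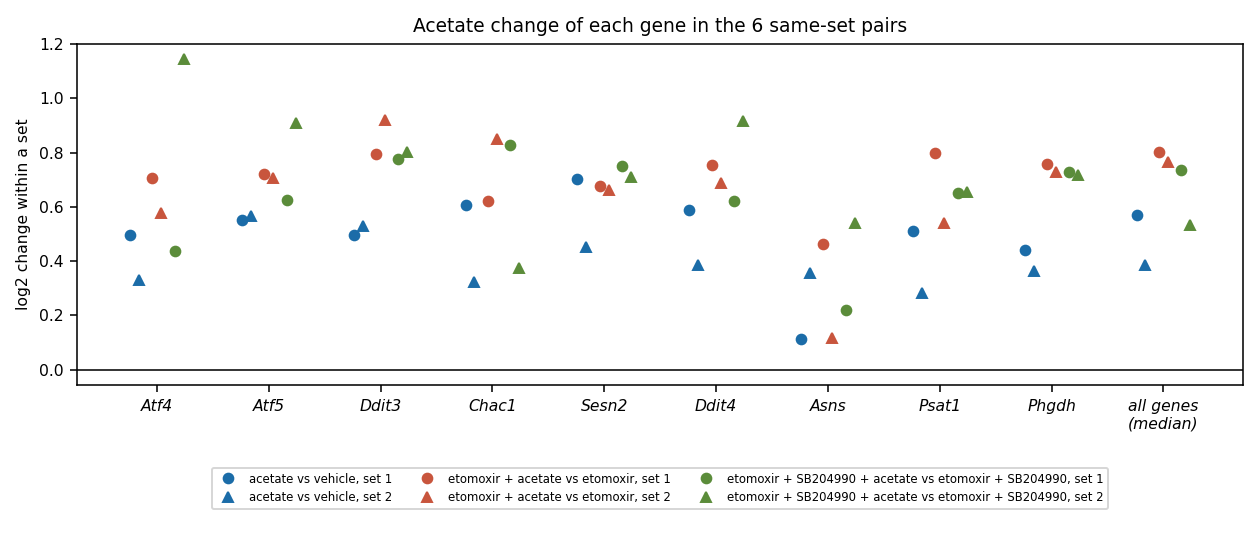
Log2 change with acetate (y axis) within each set for each gene and for the median of all genes tested, with 1 symbol per same-set pair, colored by inhibitor background (circles set 1, triangles set 2). All pairs lie above 0, from 0.11 in Asns to 1.14 in Atf4.

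By background, acetate alone vs. vehicle gave 0 of 9 calls (0% of all genes), and edgeR also called 0. Of all genes, 8341 had an unadjusted p under 0.05 in limma. A fit with a replicate block did call some of the 9 genes, as given at the end. In the main fit the log2 changes ran from 0.23 in Asns to 0.58 in Sesn2, with adjusted p-values from 0.101 by limma. Of the 9 genes, 8 had an unadjusted p under 0.05, and 8 were called without either etomoxir + SB204990 library (61.1% of all genes without set 1 and 61.2% without set 2) and 3 without either etomoxir + SB204990 + acetate library (11.9% of all genes in both cases), which enter through the shared estimate of spread. On etomoxir, 8 of 9 genes rose with acetate, all but Asns (78.2% of all genes), led by Ddit3 at 0.86 ± 0.19 (adjusted p = 0.00291, limma), and 5 were called without the set 1 library of etomoxir + acetate (28.8% of all genes). On etomoxir + SB204990, Atf4 had the largest average change at 0.79 ± 0.19 (adjusted p = 0.00653, limma). It changed by 0.44 in set 1 and 1.14 in set 2, where the median gene changed by 0.74 and 0.53. The set 2 value uses the shallowest library, that of etomoxir + SB204990. On this background 8 of 9 genes rose as well, again all but Asns (57.7% of all genes). This count fell to 0 without the set 2 library of etomoxir + SB204990 + acetate (0% of all genes). With the factor applied to read shares, each of these acetate contrasts had 0 of 9 calls (0% of all genes). After median-of-ratios scaling each also had 0 of 9, and 1 of all genes was called on etomoxir + SB204990. A difference of the acetate change between inhibitor backgrounds was tested directly. Neither interaction called a gene (0 of 9 for etomoxir and 0% of all genes, with 31 at an unadjusted p under 0.05 and 38 by edgeR, and 0 of 9 for etomoxir + SB204990 and 0% of all genes, with 11 and 97), and of the 9 genes 0 had an unadjusted p under 0.05 in limma. These contrasts share libraries, so their values are given side by side only.

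Etomoxir, averaged over cells without and with acetate, gave 0 of 9 calls (0.298% of all genes). The log2 changes ran from 0.17 ± 0.12 in Ddit4 to 0.38 ± 0.18 in Asns, with adjusted p-values of 0.181 to 0.292 by limma, and the median of all genes was 0.29. Of the 9 genes, 5 had an unadjusted p under 0.05 in limma and 6 in edgeR, which also made 0 calls. Among all 19458 genes, 5342 and 5316 had such a p. All 4 etomoxir libraries of Asns were above its 4 libraries of vehicle and acetate, the only gene of the 9 without overlap in this contrast (0.786% of all genes tested were higher in this way). Leaving out either etomoxir + SB204990 library raised the count of calls to 5 (32.4% of all genes without set 1 and 32.7% without set 2). After median-of-ratios scaling 0 of the 9 were called (0.0257% of all genes). Etomoxir vs. vehicle alone gave 0 of 9 (0.0154% of all genes), with changes from 0.05 in Ddit4 and in Phgdh to 0.36 in Asns. With the factor applied to read shares only 2 of the 9 changes were above 0. Their median was then -0.04, beside -0.08 for all genes.

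Etomoxir + SB204990, averaged in the same way, gave 0 of 9 calls (0.0822% of all genes, and 0.0925% with 0 of 9 after median-of-ratios scaling), and 0 of the 9 had an unadjusted p under 0.05 in limma or edgeR. The changes ran from -0.22 ± 0.12 in Ddit4 to 0.14 ± 0.18 in Asns, and the median of all genes was -0.10. The 2 sets differed here: the mean change of Asns was -0.12 in set 1 and 0.40 in set 2, and that of Ddit4 was -0.39 and -0.06, where the median gene changed by -0.26 and 0.06. Etomoxir + SB204990 vs. vehicle gave 0 of 9 (0.00514% of all genes), from -0.37 in Ddit4 and -0.35 in Atf4 to 0.07 in Asns.

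Adding SB204990 to etomoxir lowered H3K27ac at 6 of 9 genes on average over cells without and with acetate (45.0% of all genes were called). Atf4 fell by 0.46 ± 0.13 on the log2 scale (0.726-fold, adjusted p = 0.0276, limma). Its same-set changes ran from -0.19 to -0.75, the latter with the shallowest library. Sesn2 fell by 0.40, Ddit4 by 0.39, Psat1 by 0.38, Phgdh by 0.35 and Atf5 by 0.33. Chac1 (-0.34), Ddit3 (-0.29) and Asns (-0.24) did not pass, with adjusted p-values of 0.0695, 0.0696 and 0.234 by limma. Without each library in turn, the change ran from -0.51 to -0.16 in Chac1, -0.37 to -0.20 in Ddit3 and -0.34 to -0.14 in Asns. The median of all genes was -0.40, and after median-of-ratios scaling 0 of 9 genes were called (0% of all genes, with 935 at an unadjusted p under 0.05). There were also 0 of 9 calls when limma was fitted without an intensity trend (0.00514% of all genes). With the factor applied to read shares there were 0 of 9 as well (0%). The median of the 9 genes was then -0.08, beside -0.13 for all genes, while it was -0.35 in the main fit. The count also moved with single libraries. There were 0 calls without either etomoxir library, either etomoxir + acetate library or the set 1 library of etomoxir + SB204990 + acetate (0% of all genes each). There were 2 calls without the set 1 library of etomoxir + SB204990 (24.8% of all genes) or either acetate library (27.6% without set 1 and 29.8% without set 2), and 8 without the set 2 library of etomoxir + SB204990 (85.1%). Within set 1 the change of Asns was -0.47 and within set 2 -0.01, where the median gene changed by -0.65 and -0.12.

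**Figure D4:**
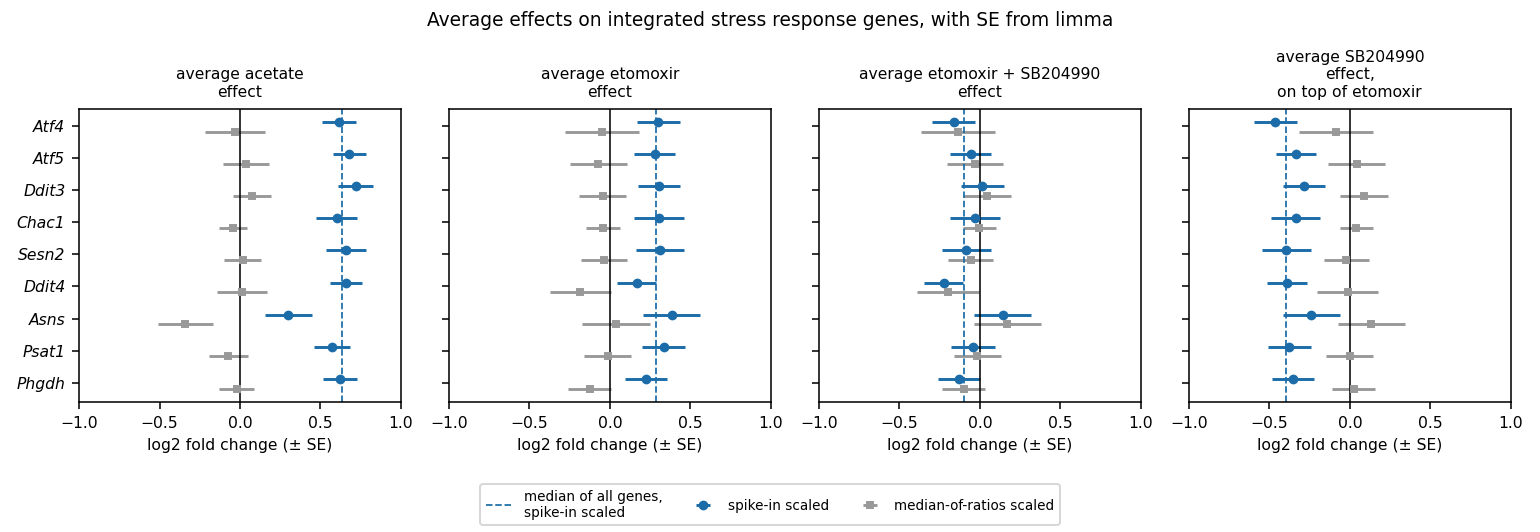
Log2 fold change with its SE (x axis) of the 9 genes for the 4 average effects, as spike-in scaled (blue circles) and after median-of-ratios scaling (gray squares), with the median of all genes as a dashed line. The blue points lie around the dashed line in each panel, and under median-of-ratios scaling the acetate changes lie between -0.34 (Asns) and 0.08 (Ddit3).

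At the level of single intervals, 34 of the 59 had a mean of at least 10 scaled reads and were tested. Those left out were the weakest intervals, mainly of Chac1 (8 of 14) and Psat1 (6 of 13). Of the 34, 3 weak intervals (1 each of Asns, Ddit4 and Phgdh) passed only through their libraries with acetate, since they averaged 6.64, 9.13 and 8.11 scaled reads without it. Nothing is read from the count over the 34, of which 29 were called for acetate (77.2% of all 63903 intervals tested). With no filter, 32 of all 59 intervals rose with acetate and 0 fell (42.8% of all intervals were called). When the mean of 10 was asked of the libraries without acetate, a choice made after the data were seen, 28 of 31 rose and 0 fell (80.3% of 53425 intervals). The start-site interval of Asns changed by 0.27 ± 0.14 and was not called (adjusted p = 0.0623, limma). The upstream interval of Phgdh rose by 0.58 ± 0.11 and its start-site interval by 0.61 ± 0.11. In Psat1 all 7 tested intervals rose, by 0.51 in the strongest and by 0.76 at the distal start. The start-site interval of Chac1 rose by 0.57 ± 0.11.

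Etomoxir called 0 of the 34 intervals (0.421% of all tested), with 14 at an unadjusted p under 0.05 in limma. Nothing is read from these 14, since their share over all intervals is not given here. Etomoxir + SB204990 called 0 of 34 (0.351%), with 0 at an unadjusted p under 0.05. Without either etomoxir + SB204990 library 5 intervals were called for etomoxir (10.9% of all tested in both cases). Without the set 2 library of etomoxir + SB204990 (2.98%) or of etomoxir + SB204990 + acetate (1.89%), 1 was called for that combination. The interval that holds Trib3 and Rbck1 had 1175 and 1357 scaled reads in vehicle, 1741 and 1736 with acetate, 1407 and 1355 with etomoxir, 2362 and 2252 with etomoxir + acetate, 969 and 1250 with etomoxir + SB204990, and 1581 and 2098 with etomoxir + SB204990 + acetate. Its libraries with and without acetate did not overlap. It rose by 0.64 ± 0.10 with acetate on average (adjusted p = 4.17e-09, limma over intervals) and changed by 0.27 with etomoxir (adjusted p = 0.216), and after median-of-ratios scaling its acetate change was -0.0021 (adjusted p = 0.999).

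Other genes of the pathway were counted by list, over the members with a mean of at least 10 scaled reads. These were 7 of 7 genes of eIF2alpha control and 7 of 7 listed partners of ATF4. The partners were Atf3, Cebpb, Cebpg, Jdp2, Nupr1, Batf3 and Creb5. Then came 18 of 19 tRNA synthetases, 9 of 10 amino acid transporters, and 11 of 12 genes of serine, one-carbon and amino acid synthesis. The last were 8 of 10 secreted and other ATF4 targets, 16 of 17 ER chaperones and targets of ATF6 or XBP1, and 7 of 10 mitochondrial stress genes. The counts below stand beside 88.2% of all genes called for acetate and 45.0% for SB204990 on top of etomoxir. Of the eIF2alpha kinases with eIF2alpha itself and its phosphatase subunits, 7 of 7 rose with acetate, with a median change of 0.68. All 7 listed partners of ATF4 rose (median 0.75), as did 17 of 18 tRNA synthetases (0.64) and 9 of 9 amino acid transporters (0.62). So did 11 of 11 genes of serine, one-carbon and amino acid synthesis (0.63). Of secreted and other ATF4 targets 6 of 8 rose (0.67), of ER chaperones and targets of ATF6 or XBP1 14 of 16 (0.63), and of mitochondrial stress genes 7 of 7 (0.61). Nothing is read from Yme1l1, 1 of these 7, or from Lars, the tRNA synthetase that was not called, which passed the filter only through their libraries with acetate (means of 7.98 and 9.72 scaled reads without it). The median of all genes was 0.63. With etomoxir, and with etomoxir + SB204990, 0 genes of any list were called. Adding SB204990 to etomoxir lowered 5 of 7, 2 of 7, 10 of 18, 7 of 9, 4 of 11, 3 of 8, 5 of 16 and 5 of 7 genes of these lists in the same order, with list medians from -0.45 to -0.32 and a median of -0.40 over all genes. After median-of-ratios scaling no gene of any list was called in the 4 average effects.

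The genes with the most similar pattern over the 12 libraries after median-of-ratios scaling are given as a description, since libraries share depth and composition. Atf4 was most like Vdac1 (Pearson r = 0.993) and Iscu (0.992), Ddit4 like Rab11fip5 (0.998), Psat1 like Gm33460 (0.993), Phgdh like Lman1l (0.992), Atf5 like Cracr2b (0.990), Sesn2 like Myd88 (0.983), Ddit3 like Rxfp4 (0.974) and Asns like Myhas (0.964). Chac1 had the weakest best match, Txk at 0.879.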

How the data were processed

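H3K27ac ChIP-seq was analysed in 12 libraries of 4T1 cells. As its methods and the labels state, the authors added 7.5% human chromatin, aligned the reads to merged human (GRCh38) and mouse (mm10) genomes with the nf-core/chipseq workflow, and derived spike-in factors divided by the highest factor. The aligner and peak caller settings are not given in the sources used here. The deposited signal is the count per interval multiplied by 1 factor per library (0.398 to 1), which is not adjusted for depth. In 2 libraries, 1 in each set, the factor was 1 and the deposited values were counts. In the others whole reads were recovered from the step between values (100% whole at a tolerance of 0.01). Intervals without a gene name (12, 0.00949%) were left out of gene sums, and 21 symbols read as dates, none of a gene named here. Input libraries were not used here. 1 marker gene is not reported here.

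Scaled values were summed per gene name. limma (3.58.1, R 4.3.3) with an intensity trend was fitted on log2(value + 1), with 6 group means over 12 libraries, for features with a mean of at least 10. The pseudocount of 1 makes changes of weak features smaller. Calls had a Benjamini-Hochberg adjusted p under 0.05. edgeR (4.0.16) quasi-likelihood tests on recovered counts, median-of-ratios scaling and the other alternatives are given at the end. The scripts were tested on simulated data. Of each gene the strongest interval and that nearest the start were named, of other lists genes called under both scalings, and for likeness at most 2 genes with a mean of at least 50. The genes and lists were chosen with earlier results of these data known. Intervals are in mm10 counted from 1, and sequences come from the RefSeq start sites on GRCm38.p6.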

Additional observations from a re-analysis of the deposited data

How the results depend on the processing

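The count of genes called for acetate (8 of 9) stayed at 8 or 9 when each library was left out in turn. Without each library in turn the count ran from 0 to 8 for acetate vs. vehicle (8 without either etomoxir + SB204990 library, 3 without either etomoxir + SB204990 + acetate library), 5 to 8 for etomoxir + acetate vs. etomoxir, 0 to 8 for etomoxir + SB204990 + acetate vs. etomoxir + SB204990, 0 to 5 for etomoxir, and 0 to 8 for SB204990 on top of etomoxir. For intervals it ran from 24 to 34 for acetate, 0 to 5 for etomoxir and 0 to 1 for etomoxir + SB204990. In the full fit 88.2% of all genes and 77.2% of all intervals were called for acetate. The acetate counts are thus not particular to the 9 genes, and nothing about these genes is read from counts with 1 library left out. Median-of-ratios scaling left 0 calls in every comparison and for the acetate intervals (0). So did applying the factor to read shares (each value divided by the library's reads). limma without an intensity trend left 0 calls for SB204990 on top of etomoxir. With intervals within 5000 bp of the start, acetate vs. vehicle had 3 calls (10.8% of all genes).

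Pairing by set was not used in the main fit. Only 4 of 15 pairs of treatments had set differences correlated above 0.1 (-0.225 to 0.601, with 0.561 for vehicle and acetate). This check follows differences between genes and cannot show an offset shared by all genes of a set. In each set 1 library had a factor of 1, and whether the 2 sets share 1 scale was not tested. Comparisons of libraries across sets assume that they do. With the replicate block, 4 genes were called for acetate vs. vehicle (20% of all genes), 9 for acetate on average (90.3%) and 7 for SB204990 on top of etomoxir (59.3%).

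Under median-of-ratios scaling the sign turned for acetate in Atf4 (-0.0286), Chac1 (-0.0431), Asns (-0.34), Psat1 (-0.0714) and Phgdh (-0.0214), for etomoxir in Atf4 (-0.0482), Atf5 (-0.0713), Ddit3 (-0.0455), Chac1 (-0.0430), Sesn2 (-0.0371), Ddit4 (-0.183), Psat1 (-0.0142) and Phgdh (-0.125), and for SB204990 on top of etomoxir in Atf5 (0.0416), Ddit3 (0.0885), Chac1 (0.0390), Asns (0.134) and Phgdh (0.0234). With read shares it turned for etomoxir + SB204990 in Atf4 (0.0164), Atf5 (0.122), Chac1 (0.148), Sesn2 (0.0931), Psat1 (0.136) and Phgdh (0.05004), and for SB204990 on top of etomoxir in Asns (0.0298). Without each library in turn, the etomoxir + SB204990 change ran from -0.149 to 0.0347 in Atf5, -0.0680 to 0.0994 in Ddit3, -0.209 to 0.147 in Chac1 and -0.119 to 0.0341 in Psat1. The signs listed here are those of the average effects only. The alternatives that removed the acetate calls rescale all intervals of a library together. Fewest reads behind a gene were 137, in Asns.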
